A study of Mus musculus with 2 samples.

Results

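The genes described here are Runx1, Runx2, Runx3 and Cbfb, which encode the DNA-binding and the partner subunits of core binding factor. They were chosen by name, 4 of the 21938 protein-coding genes of GENCODE M21, and each was examined over its gene body with 50 kb either side. Reads were counted there in 200-bp windows and scaled to 1000000 reads of the library (RPM). Binding of the transcription factor Gata3 was measured by ChIP-seq in mouse TH2 cells, with 2 libraries of 1 condition (replicates 1 and 2). The cells were naive splenic CD4+ T cells activated with anti-CD3 and anti-CD28 and cultured with IL-2, IL-4 and anti-IFNγ, according to the methods of the study. The labels give no genotype, age or strain for these libraries, and do not say whether the replicates came from separate mice or cultures. They name ILC2 in the extraction protocol and TH2 cells elsewhere. The assay reads binding and not expression, so the cell type could not be checked against marker genes.

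Runx proteins bind DNA through the Runt domain, and Cbfb, which does not touch DNA itself, stabilises that binding. In T cells Runx1 acts from thymic development onwards, Runx3 is known for silencing Cd4 in CD8+ T cells and for restraining Il4 in TH1 cells, and Runx2 is best known as the master regulator of bone formation. Each Runx gene is transcribed from a distal start (P1) and a proximal start (P2), the latter in a CpG island. Gata3, the factor that directs TH2 differentiation, recognises GATA sequences.

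Library 1 held 40504814 reads and library 2 held 24959052 reads on the chromosomes used. A window of 200 bp therefore held 2.97 and 1.83 reads on average. One-sided exact Poisson tests (Benjamini-Hochberg q of 0.01 over the whole genome) called 71726 and 28204 peaks, and 23806 peaks of library 1 overlapped a peak of library 2. These are called shared. Height denotes the smaller of the RPM values that the libraries gave at their summit windows. No input library was used here, and fold values are over the mean density of the surrounding 5 or 10 kb of the same library, or over the library mean where that was higher. By their read names the libraries ran on different instruments, so that library and sequencing run cannot be told apart. Ranges in brackets are 95% exact intervals for counting error alone.

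The 4 loci held 42 shared peaks, and the sequence at 7 of their summits is given here because these peaks differ in height, position and sequence content. Each run spans 100 bases either side of the library 1 summit. Capitals mark words on either strand, which may overlap. GATA words were AGATAA or else AGATAG, as well as TGATAA or else TGATAG. RUNX words were TGTGGT or else TGCGGT. AP-1 words were TGACTCA or else TGAGTCA. The tallest Runx1 peak held 1 word of each kind, the upstream Runx1 peak lay at a run of CTAT repeats, the second tallest Runx2 peak held a RUNX word and a GATA word that share no base, and the tallest Runx2 peak held none. The Runx3 runs show the peak beside P1 and the tallest peak of that locus, and the Cbfb run shows the peak inside that gene. The shared peaks within 2 kb of Runx1 P1, Runx2 P2 and Runx3 P2, not shown, held none of these words. The run headed Runx3 P1 has its summit 952 bp upstream of that start and does not include the start.
Runx1 intron 5 (chr16:92654000-92654200, GRCm38, plus strand): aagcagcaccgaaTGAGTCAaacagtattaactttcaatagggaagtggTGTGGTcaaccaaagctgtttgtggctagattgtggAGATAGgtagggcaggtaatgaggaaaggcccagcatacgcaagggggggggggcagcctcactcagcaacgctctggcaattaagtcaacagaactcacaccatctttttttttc
Runx1 upstream (chr16:92856000-92856200, GRCm38, plus strand): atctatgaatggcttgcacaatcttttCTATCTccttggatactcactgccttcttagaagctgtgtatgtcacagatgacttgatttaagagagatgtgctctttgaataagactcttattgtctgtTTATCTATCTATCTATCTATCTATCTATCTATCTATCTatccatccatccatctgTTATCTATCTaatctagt
Runx2 intron 2 (chr17:44766350-44766550, GRCm38, plus strand): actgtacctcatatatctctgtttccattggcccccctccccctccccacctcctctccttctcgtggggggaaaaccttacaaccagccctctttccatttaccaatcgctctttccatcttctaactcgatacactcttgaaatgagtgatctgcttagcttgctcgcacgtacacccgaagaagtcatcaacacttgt
Runx2 intron 4 (chr17:44718700-44718900, GRCm38, plus strand): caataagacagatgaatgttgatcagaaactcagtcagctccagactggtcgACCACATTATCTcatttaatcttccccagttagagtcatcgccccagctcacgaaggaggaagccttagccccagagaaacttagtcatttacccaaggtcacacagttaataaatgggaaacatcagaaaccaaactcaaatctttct
Runx3 P1 (chr4:135119600-135119800, GRCm38, plus strand): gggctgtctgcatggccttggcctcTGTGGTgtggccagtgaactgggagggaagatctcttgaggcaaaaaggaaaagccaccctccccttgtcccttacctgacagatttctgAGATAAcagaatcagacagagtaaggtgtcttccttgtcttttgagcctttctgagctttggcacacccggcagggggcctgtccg
Runx3 downstream (chr4:135206250-135206450, GRCm38, plus strand): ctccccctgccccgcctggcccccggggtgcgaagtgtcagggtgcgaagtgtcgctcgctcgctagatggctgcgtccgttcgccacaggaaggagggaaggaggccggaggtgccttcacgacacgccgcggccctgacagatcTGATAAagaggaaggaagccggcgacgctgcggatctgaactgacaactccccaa
Cbfb intron 3 (chr8:105186600-105186800, GRCm38, plus strand): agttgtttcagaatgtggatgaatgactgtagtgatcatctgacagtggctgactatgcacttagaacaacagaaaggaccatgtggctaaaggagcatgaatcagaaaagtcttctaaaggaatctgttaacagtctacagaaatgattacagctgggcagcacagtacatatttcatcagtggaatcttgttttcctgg

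The loci differed in their number of shared peaks. The Runx1 locus held 14 shared peaks, Runx2 17, Runx3 8 and Cbfb 3. In the gene bodies alone there were 10, 13, 2 and 1. Each of the 4 members thus had at least 1 in its body, as did 29.4% of all protein-coding genes, and for loci with 50 kb either side the share over all genes was 71.2%. The Runx3 and Cbfb bodies held 0 at q of 1e-10, at 5-fold or more over the local background and with windows of 100 bp, and the Cbfb body also with windows of 400 bp. Long genes hold more peaks, so each member was set beside the protein-coding genes within 20% of its length. Of these, members included, 71.6% (Runx1), 71.9% (Runx2), 52.2% (Runx3) and 47.8% (Cbfb) held at least 1 in the body. Of 334 genes as long as Runx2, 6 (1.8%) held at least as many shared peaks, and of 475 genes as long as Runx1, 23 (4.84%) did. For Runx3 it was 414 of 1709 genes (24.2%) and for Cbfb 901 of 1888 (47.7%). At q of 0.01 Runx2 and Runx1 thus stood near the top for their length, and Runx3 and Cbfb did not. This comparison was not repeated under other rules. The Runx1 and Runx2 bodies then held 4 and 4 at q of 1e-10, and 3 and 3 at 5-fold or more.

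**Figure D1:**
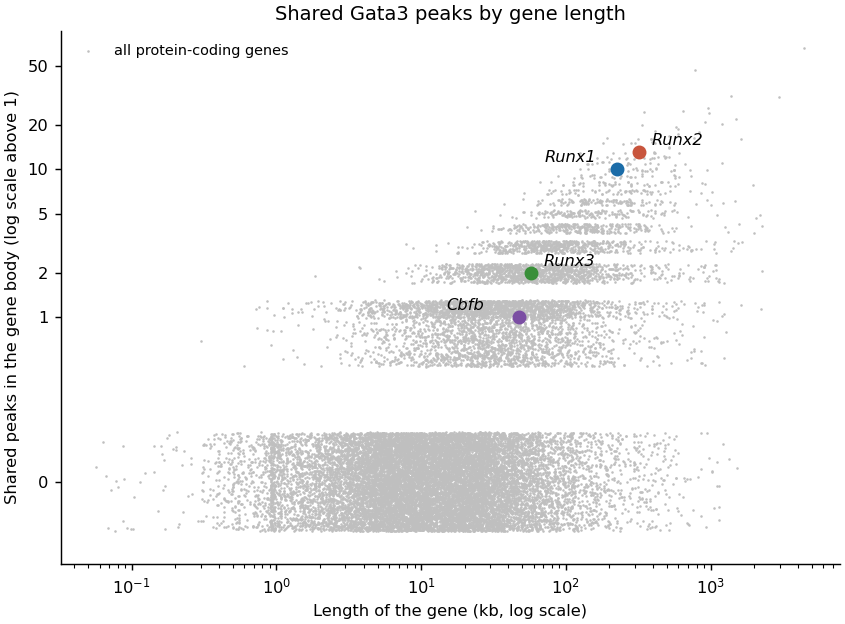
Shared Gata3 peaks in the gene body (vertical axis, linear to 1 and log scale above) against gene length in kb (horizontal axis, log scale). Each grey point is a protein-coding gene, spread slightly up and down, and the 4 members are named; Runx2 with 13 and Runx1 with 10 lie above most genes of their length, and Runx3 with 2 and Cbfb with 1 lie within the bulk.

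Per 100 kb, the loci held 4.31 (Runx1), 4.06 (Runx2), 5.08 (Runx3) and 2.04 (Cbfb) shared peaks, where the median protein-coding gene locus held 0.978. These densities ranked at the 95.6, 94.8, 98 and 73.4 percentiles of all protein-coding genes. By these values the Runx3 locus was the densest of the 4, an order that held under 3 of 9 other rules for a peak. With library 1 thinned to equal depth the densities were 3.7 (Runx1), 3.82 (Runx2), 3.18 (Runx3) and 1.36 (Cbfb), and without replicate 2 they were 8.32, 7.88, 7.63 and 4.75. At q of 1e-10 they were 1.85, 1.19, 0 and 0.679. At 5-fold or more over the local background they were 1.23, 0.955, 0.636 and 0.679. Under both of these rules the Runx3 locus was the sparsest of the 4. Of the 8 Runx3 peaks 6 lay in the flanks, 4 upstream and 2 downstream. By their library 1 summits, 24 of the 26 shared peaks in the 4 gene bodies lay in introns of the reference transcript and 0 in its exons, and the other 2 lay in the part of Runx2 beyond the end of that transcript. The peak at Runx1 P1 overlapped exon 2 of Runx1, and its library 2 summit lay inside that exon. Exons of any annotated transcript also lay within 100 bp of the summits 10549 bp after Runx1 P1 and 1954 bp after Runx3 P2. The same held for the peak inside Fbxl8.

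The read density of the gene bodies ordered the members in the same way in both libraries. Runx1 (ENSMUSG00000022952.17, chr16:92601466-92826149, minus strand) had 0.826 RPKM (RPM per kb) in library 1 (0.808 to 0.845) and 0.924 in library 2 (0.899 to 0.949). Runx2 (ENSMUSG00000039153.16, chr17:44495987-44814797, minus strand) had 0.767 (0.752 to 0.782) and 0.786 (0.767 to 0.806). Runx3 (ENSMUSG00000070691.10, chr4:135120652-135177990, plus strand) had 0.673 (0.64 to 0.707) and 0.683 (0.641 to 0.727). These 3 exceeded the medians over all protein-coding genes, 0.501 and 0.498. Cbfb (ENSMUSG00000031885.14, chr8:105170674-105217989, plus strand) had 0.442 (0.413 to 0.473) and 0.452 (0.415 to 0.492), below those medians. Within each library the 4 counting intervals did not overlap. For Runx1 alone the intervals of the libraries did not overlap each other either, so its libraries differed by more than counting error. With all called peaks taken out, the means over both libraries were 0.698, 0.602, 0.624 and 0.415, and Runx3 then stood above Runx2.

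**Figure D2:**
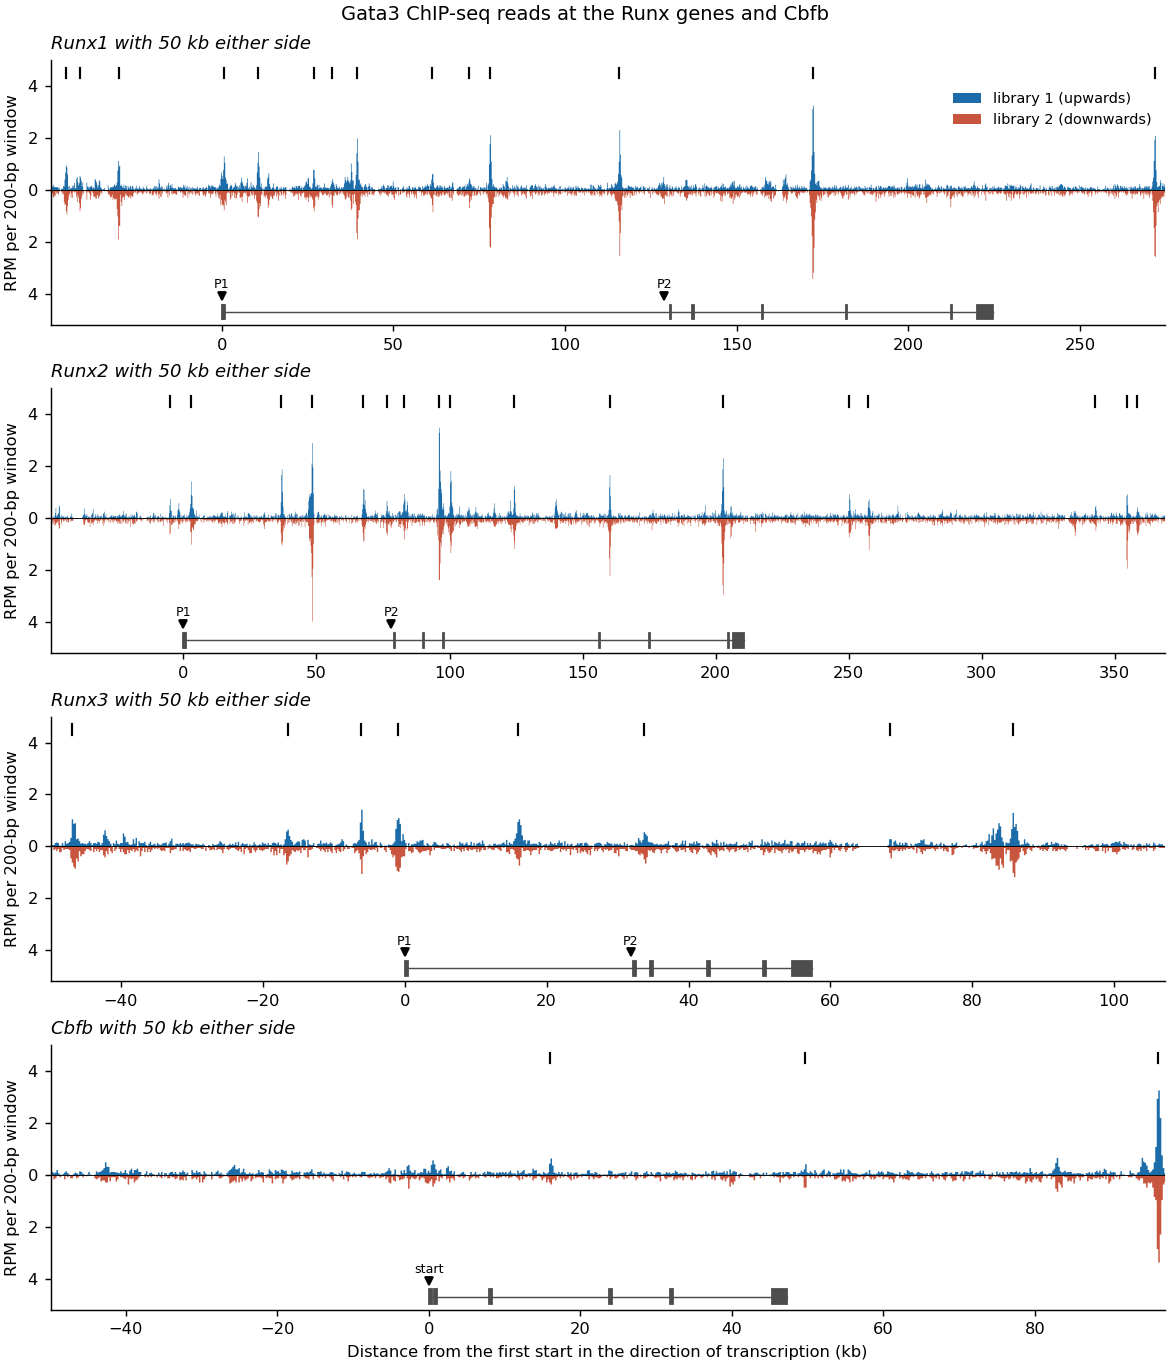
RPM in 200-bp windows across each locus, by distance in kb from the first start in the direction of transcription, with library 1 drawn upwards and library 2 downwards. Black ticks mark shared peaks, boxes the exons of the reference transcript and triangles the starts; the tall peaks recur in both libraries, and at Cbfb the tallest lies at the far end of the downstream flank.

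Runx1 encodes the family member that establishes definitive haematopoietic stem cells and stays expressed in T cells. Its shared peaks were spread from 45301 bp upstream of P1 to 271749 bp downstream of it, and the 2 farthest upstream lay inside Gm49723, a lincRNA gene. The tallest lay in intron 5, with 154 reads (3.8 RPM) in library 1 and 94 reads (3.77 RPM) in library 2, 6.72-fold and 5.37-fold over the local background. It was higher than 98.7% of all shared peaks, and its summits coincided in both libraries. This was the peak whose sequence, given above, held the AP-1 word TGAGTCA, the RUNX word TGTGGT and the GATA word AGATAG. Next in height came a peak in intron 2, 13022 bp upstream of P2, with 94 reads (2.32 RPM) and 66 reads (2.64 RPM), which held a GATA and an AP-1 word. The next peak, 271749 bp from P1 and outside the gene, had 2.2 RPM in library 1 and 3 RPM in library 2 and also held both words. The upstream peak with the CTAT repeats, 29951 bp before P1, had 1.38 and 1.92 RPM. Its summits lay 250 bp apart in the 2 libraries, the widest gap among the 42 peaks (a gap shared by 1 peak upstream of Runx3), so that the letters at one summit need not be those at the other. Of its 14 shared peaks, 9 lay in intron 2, the long intron that holds P2.

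Runx2 encodes the osteoblast regulator. It is the longest of the 4 genes, and it held the most shared peaks. Its 2 tallest peaks were near each other in height. One lay in intron 2, 48347 bp after P1, with 120 reads (2.96 RPM) in library 1 and 102 reads (4.09 RPM) in library 2. The other lay in intron 4, 17848 bp after P2, with 159 reads (3.93 RPM) and 73 reads (2.92 RPM). They ranked at the 96.4 and 96.3 percentiles of all shared peaks. The libraries ordered them oppositely, and the reads of each differed between libraries only at an unadjusted p (two-sided exact binomial test, p = 0.019 and 0.036, q = 0.36 and 0.46). The intron 2 peak held no GATA, RUNX or AP-1 word within 100 bp of its summit, and the intron 4 peak held ACCACATTATCT, in which a RUNX word and a GATA word stand end to end. A peak in intron 7, 124498 bp after P2, followed with 2.39 and 3.33 RPM. The first 3 shared peaks of the Runx2 locus lie within Supt3, a gene of the SAGA complex that overlaps Runx2 on the opposite strand, and 1 of them lay 848 bp after the start of Supt3, with 2.15 and 1.24 RPM. Which of the 2 genes these peaks concern was not tested.

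Runx3 encodes the member known for CD8+ T cell and TH1 identity. Its tallest peak in the gene body had a height of 0.721 RPM, against 3.77 for Runx1 and 2.96 for Runx2. The 2 peaks inside the gene lay in intron 1 (1.21 and 0.721 RPM) and in intron 2, 1954 bp after P2 (0.617 and 0.721 RPM). The tallest peaks of the locus lay in its flanks. One was 85698 bp after P1, beyond the end of the gene, with 52 reads (1.28 RPM) and 33 reads (1.32 RPM). The peak beside P1 had 52 reads (1.28 RPM) and 24 reads (0.962 RPM) and lay inside Gm16225, a lincRNA gene. A peak 6152 bp upstream of P1 had 1.48 and 1.04 RPM and stood 6.47-fold and 5.86-fold over its local background. The lowest of the 42 peaks, with 14 and 13 reads, also belonged to this locus. It lay 68348 bp after P1, next to the longest stretch without any read in the 4 loci (4000 bp).

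Cbfb, the non-DNA-binding subunit that all 3 Runx proteins share, had the fewest peaks. Its only peak inside the gene, in intron 3, had 25 reads (0.617 RPM) in library 1 and 14 reads (0.561 RPM) in library 2, which was 4.53-fold and 4.49-fold over local background. It was higher than 18.4% of all shared peaks and held none of the words searched. A second peak, just beyond the end of the gene, had 0.444 and 0.601 RPM. The last was the second tallest of the 42, with 137 reads (3.38 RPM) and 93 reads (3.73 RPM), 97.8 percentile of all shared peaks. It lay 96276 bp from the Cbfb start, inside Fbxl8, an F-box protein gene, and held a RUNX word but no GATA word. A flank of 20 kb instead of 50 kb leaves it out. The Cbfb gene body itself thus had 1 low peak.

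**Figure D3:**
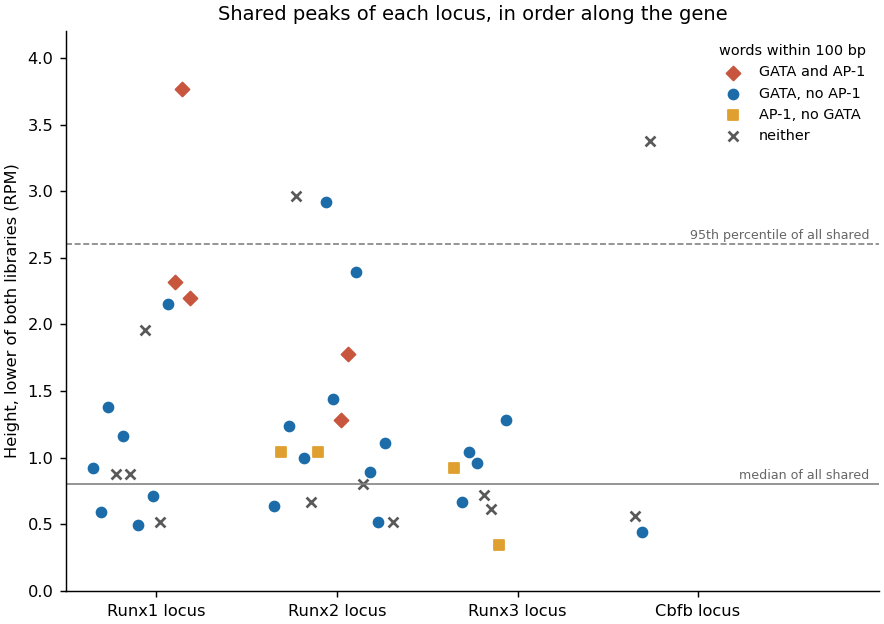
Height of each of the 42 shared peaks (lower of both libraries, in RPM), in order along each gene, with the symbol showing whether GATA and AP-1 words lie within 100 bp of the summit. RUNX words are not shown. The grey lines are the median (0.801 RPM) and the 95th percentile of all shared peaks; 4 of the 42 lie above the upper line, and 27 above the median.

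Across the 42 peaks the median height was 0.981 RPM, where all shared peaks had a median of 0.801 RPM. Of the 42, 8 were at or above the 90th percentile and 4 at or above the 95th. The reads of 0 of the 42 differed between the libraries at q of 0.05 (two-sided exact binomial test over all 23806 shared peaks). Of all shared peaks 0.441% differed. At an unadjusted p under 0.05 in that test 5 of the 42 differed, all of them in the Runx2 locus. The ratio of library 2 to library 1 ran from 0.578 to 1.84. Pearson's r of the log2 RPM was 0.879 over the 42 peaks, which were all called in both libraries, and 0.855 over all shared peaks. Summits lay within 100 bp of each other at 32 of the 42 peaks. In library 1 the median 5′ position of plus-strand reads lay left of that of minus-strand reads at 41 of the 42. Peaks were called on reads moved towards their 3′ end, which favours this order, so it does not test the peaks. A further 37 peaks of these loci were called in library 1 alone and 4 in library 2 alone.

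**Figure D4:**
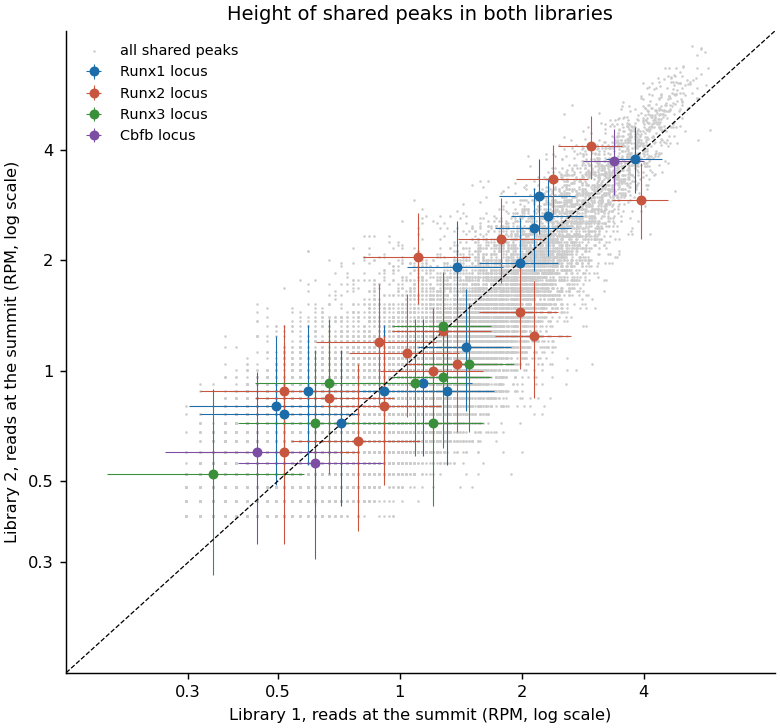
RPM at the summit in library 1 (horizontal) and library 2 (vertical), both on log scales. Grey points are all 23806 shared peaks, coloured points the 42 of the 4 loci with 95% exact counting intervals, and the dashed line marks equal values; of the 42, 23 were higher in library 2 and 19 in library 1.

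In windows of 200 bp set end to end, 72 of 1623 (4.44%) in the Runx1 locus reached 5-fold or more over the library mean in both libraries. It was 75 of 2094 (3.58%) for Runx2, 31 of 786 (3.94%) for Runx3 and 12 of 736 (1.63%) for Cbfb, where 0.654% of all windows of the genome did. Each locus thus held a larger share of such windows than the genome, and Cbfb the smallest of the 4. The Cbfb locus includes the tall peak inside Fbxl8 in its flank, and how many of the 12 windows that peak gave was not counted.

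At the starts, the distal start of Runx1 and of Runx3 carried more reads than the proximal one, and Runx2 did not follow that order. A shared peak lay within 2 kb of 3 of the 6 starts tested (Runx1 P1, Runx2 P2 and Runx3 P1), where 11.7% of all protein-coding genes had one at their outermost start. Counted by start as for the members (the first and second CCDS starts of each gene), it was 2838 of 24050 (11.8%). With a P2 start of Runx3 that was added after the data were seen, because it carries no CCDS tag, it was 4 of 7. The Runx1 P1 peak was not shared when summits had to lie within 100 bp of each other. Within 1 kb of a start it was 2 of 6, without Runx2 P2, and the shares of all genes above are for 2 kb only. The Runx3 P2 peak, at the edge of the 2 kb, was also lost with windows of 400 bp or 100 bp, with library 1 thinned, and within 1 kb or from 5 kb upstream to 1 kb downstream. With windows of 100 bp 1 of 6 starts kept its peak (Runx3 P1). Within 2 kb either side, Runx1 P1 had 5.26 times the library mean in library 1 (4.7 to 5.88) and 4.34 times in library 2 (3.69 to 5.07). Runx1 P2 had 2.66 (2.26 to 3.11) and 2.67 (2.17 to 3.26). Runx3 P1 had 4.29 (3.78 to 4.85) and 4.64 (3.97 to 5.39), and Runx3 P2 had 2.07 (1.72 to 2.47) and 2.48 (2 to 3.05). The intervals of P1 and P2 did not overlap in either library for these 2 genes. Runx2 P1 had 1.82 (1.49 to 2.19) and 1.42 (1.06 to 1.86), and Runx2 P2 had 2.47 (2.09 to 2.91) and 2.81 (2.29 to 3.41), intervals that overlapped in library 1 and not in library 2. The shared peak nearest Runx2 P1 lay 2947 bp after it, beyond the 2 kb. A peak 1903 bp before that start, with 24 reads, was called in library 1 alone. The Cbfb start had 2.44 (2.06 to 2.87) and 2.48 (2 to 3.05) and no shared peak. A peak 526 bp after it, with 26 reads, was called in library 1 alone, where library 2 had 12 reads.

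The distal starts were poor in CpG and the proximal ones rich in it. The observed over expected CpG ratio in the 1 kb around the start was 0.31 at P1 and 0.865 at P2 of Runx1, 0.164 and 0.909 for Runx2, 0.361 and 0.949 for Runx3, and 0.928 at the only start of Cbfb. The 4 CpG-rich starts had between 2.07 and 2.81 times the library mean over both libraries, and the 3 CpG-poor ones between 1.42 and 5.26 times.

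**Figure D5:**
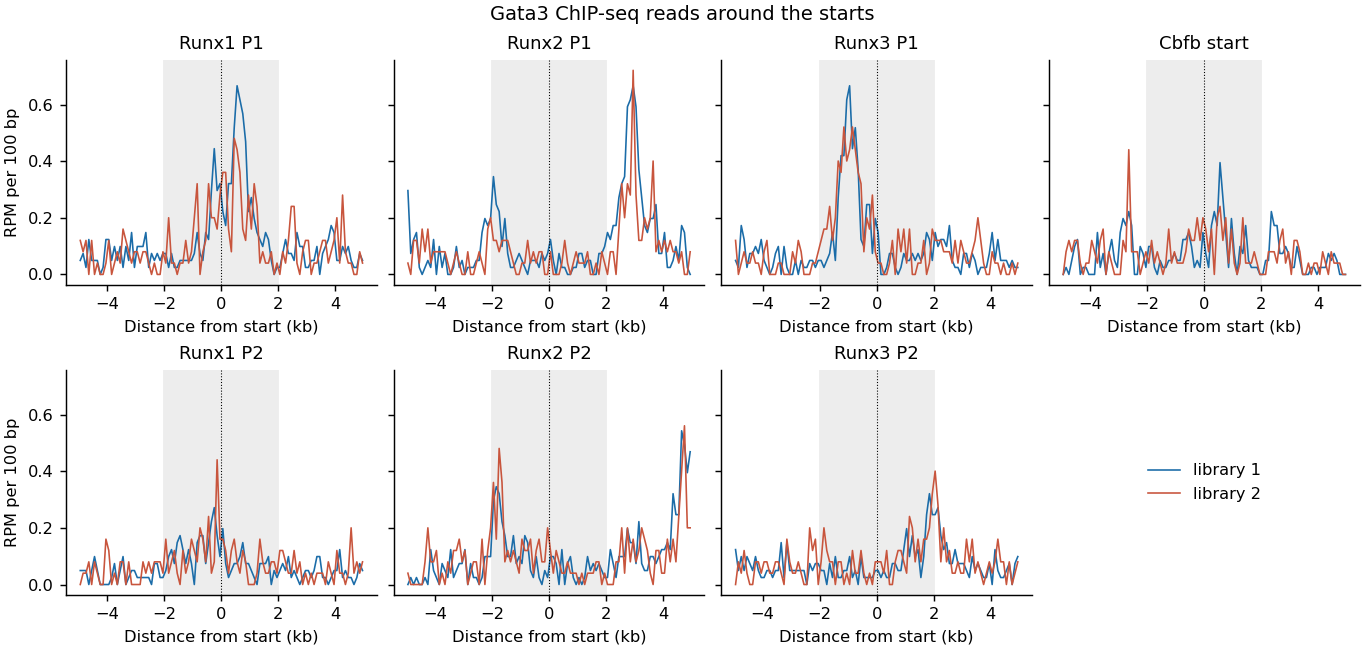
RPM per 100 bp around 7 starts, by distance in kb in the direction of transcription, for library 1 (blue) and library 2 (red); grey marks 2 kb either side. The fullest 200-bp window lay 649 bp (library 1) and 499 bp (library 2) after Runx1 P1, and 952 bp and 902 bp before Runx3 P1, and the Runx2 P1 panel shows a pile 2947 bp after the start, outside the grey.

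GATA words lay within 100 bp of 26 of the 42 summits (61.9%, 45.6 to 76.4), and of 71% of all shared summits. In windows of the same length 1 kb to either side the shares were 27.4% for the members and 33.4% for all. By locus, GATA words were found at 10 of 14 summits for Runx1, 11 of 17 for Runx2, 4 of 8 for Runx3 and 1 of 3 for Cbfb. AP-1 words lay at 9 of the 42 (21.4%, 10.3 to 36.8), against 12.3% of all shared summits and 4.76% beside the members' summits. RUNX words lay at 6 of the 42 (14.3%, 5.43 to 28.5), against 18.7% of all and 11.9% beside the members' summits. The 5 summits with both a GATA and an AP-1 word had a median height of 2.2 RPM, the 11 with none of the 3 kinds 0.721 RPM. Over all shared peaks those medians were 1 and 0.761 RPM. Most GATA words were not at a peak. Of 659 GATA words in the Runx1 locus 22 (3.34%) lay within 100 bp of a shared summit, of 917 in the Runx2 locus 17 (1.85%), of 220 in the Runx3 locus 4 (1.82%) and of 286 in the Cbfb locus 1 (0.35%). The upstream Runx1 peak with the CTAT repeats gave 12 of the 22, and without that peak 10 of 647 (1.55%) remained. A word is a match of letters and not a site of binding.

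Of 23 genes that encode proteins known to work with Runx factors, 9 (39.1%) carried shared peaks in the body or within 2 kb of their start, where 33.4% of all protein-coding genes did. The most lay in Hipk2, a kinase that phosphorylates Runx1 (11 in the body), Ets1, a factor that binds DNA together with Runx1 (7), and Smad3, which relays TGF-β signals (6). Of 18 genes known as targets of Runx proteins in T cells, 10 (55.6%) had one. Here Cd4 held 5 in its body and Satb1, a chromatin organiser, held 3. Bcl11b, Il4 and Itgae followed with 2 each. In the partner list the 3 leading genes were all over 100 kb long, and the counts are not adjusted for length. Both lists were chosen with earlier results of these data known, and their shares were not tested against that of all genes.

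The counts depended on the rule for a peak. Their order, not adjusted for the length of each locus, held except at q of 1e-10 and at 5-fold. By peaks per 100 kb the densest locus changed with the rule. At q of 1e-10 the loci held 6, 5, 0 and 1 shared peaks (Runx1, Runx2, Runx3, Cbfb), where 30.8% of all protein-coding genes had one in the locus, 9.6% in the body and 2.77% at the start. At 5-fold or more over the local background they held 4, 4, 1 and 1 (38.3%, 11.4% and 2.66% of all genes, in the same order). Under both stricter rules 0 of the 6 starts had a peak, which cannot be told apart from the 2.77% and 2.66% of all genes. The Runx3 locus held 0 and 1 such peaks, and the Cbfb locus 1 and 1. In library 1 alone the loci held 27, 33, 12 and 7 peaks (89.1%, 51.9% and 28.0% of all genes), and in library 2 alone 15, 19, 9 and 3 (75.0%, 32.0% and 13.1%). With windows of 400 bp they held 13, 20, 7 and 2 (72.6%, 30.8% and 12.9%), and with windows of 100 bp 8, 15, 4 and 2 (62.3%, 23.4% and 8.54%). With library 1 thinned they held 12, 16, 5 and 2 (68.9%, 27.6% and 10.9%), with summits within 100 bp 8, 15, 6 and 3 (65.8%, 25.7% and 9.52%), and with a mapping quality of at least 30 13, 17, 8 and 3 (71.1%, 29.3% and 11.7%). Cbfb held the fewest, or as few as Runx3, under each of these rules except q of 1e-10.

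The genes whose pattern was most like that of each member were found among genes within 20% of its length that held a shared peak in the body, by the number of shared peaks in the body and the log2 height of the tallest, each divided by its SD over all protein-coding genes. Nearest to Runx1 were Fam107b (10 peaks, tallest 3.89 RPM), Tnrc6b (10, 3.33 RPM) and Ssh2 (10, 4.52 RPM), out of 340 candidates. Nearest to Runx2 were Mllt3 (12, 2.89 RPM), Nfia (12, 2.69 RPM) and the agouti gene a (12, 3.85 RPM), out of 240. For Runx3, 9 genes had its exact values, the first 3 by name being Aebp2, Bfsp2 and Dusp22 (each 2 peaks, tallest 0.721 RPM).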

How the data were processed

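Gata3 ChIP-seq (ChIPmentation, in which bound chromatin is tagmented on the beads) was analysed in 2 libraries of TH2 cells, replicates 1 and 2. According to the methods, the authors placed single reads on GRCm38 using Bowtie2 (2.3.5.1) and kept those with a unique position. The submitters' processing notes also name MACS2 (2.1.2). The authors deposited 1 line per read with its position, strand and mapping quality score. Within a library 0 reads shared a 5′ end and strand, which caps the reads a window can hold.

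The 5′ ends, moved by 100 bp towards the 3′ end, were counted in overlapping 200-bp windows that start every 50 bp. The background of a window was its library's mean or its mean over 5 kb or 10 kb, whichever was largest (one-sided exact Poisson test, Benjamini-Hochberg over all windows with a read, 39497351 and 35250442 windows). These local means include the peak's own reads. Windows within 100 bp were joined, and peaks of the 2 libraries that overlapped by at least 1 bp were shared. A summit is the middle of a peak's fullest window, and library 1 summits assigned peaks to genes. Genes came from GENCODE M21 and sequences from the RefSeq assembly of the same build. Starts are those of protein-coding transcripts with a CCDS tag, joined within 500 bp. Calling was tested on simulated data, where most weak sites, and some strong sites with few background reads in library 2, were missed. The criterion for passing was replaced after the first result had missed it, by the recovery that the Poisson threshold predicts, and the calling itself was not changed. Genes named are the 4 members, protein-coding neighbours with a summit in their body or near their start, at most 3 genes with the most peaks in each list (all genes tied for a place are given), and the 3 most alike genes for each member (those for Cbfb are not reported here). Gm49723 and Gm16225 were named after their values were seen. The members and lists were chosen with earlier results of these data known. Computations used Python 3.11.15, NumPy 2.4.6, pandas 2.3.3, SciPy 1.17.1 and Matplotlib 3.10.9. Alternatives were stricter thresholds, other windows, a mapping quality of at least 30, closer summits, a thinned library 1, each library alone, other flanks, start distances and GATA words.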

Additional observations from a re-analysis of the deposited data

How the results depend on the processing

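No paired analysis was possible because both libraries belong to 1 condition. Counts are given for Runx1, Runx2, Runx3 and Cbfb in that order. At q of 1e-10 the loci held 6, 5, 0 and 1 shared peaks and the gene bodies 4, 4, 0 and 0. At 5-fold or more over the local background they held 4, 4, 1 and 1, and the bodies 3, 3, 0 and 0. Under both settings 0 of the 6 starts had a peak, and 9.6% and 11.4% of all protein-coding genes had one in the body and 2.77% and 2.66% at the start. With 100-bp windows the Runx1 and Runx3 loci held 8 and 4, the Runx1, Runx3 and Cbfb bodies 5, 0 and 0, and 1 start had a peak. With 400-bp windows the Runx3 and Cbfb bodies held 1 and 0. With summits within 100 bp the Runx1 locus held 8 and its body 5. With library 1 thinned to equal depth, the Runx3 locus held 5 and its body 1. With a flank of 100 kb the Cbfb locus held 5, a flank for which the share of all genes is not given.

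With a single library in place of both, the loci held 15 to 27, 19 to 33, 9 to 12 and 3 to 7 peaks, the bodies 11 to 18, 14 to 22, 2 to 2 and 1 to 2, and 3 to 5 starts had one. The higher counts are those without replicate 2, where library 1, the deeper one, stood alone. The share of all genes with a peak ran from 32% to 51.9% in the body and from 13.1% to 28% at the start. The densities ran from 0.826 to 0.924, 0.767 to 0.786, 0.673 to 0.683 and 0.442 to 0.452 RPKM, and without called peaks they were 0.698, 0.602, 0.624 and 0.415. The share of member summits with a GATA word was 45.2% within 50 bp, 35.7% for AGATAA alone, and 63% to 63.3% with a single library. The causes were not tested. Of the values under all alternatives, 50 moved beyond these limits (1.5 times for counts and for shares of all genes, 1 SD between replicates for densities, and the 95% exact interval of the main value for the GATA share) and 70 did not. With 2 libraries, each alone always lies within 1 SD of their mean. The single-library densities could therefore not move and are among the 70. At this depth 1 read is worth 0.0247 RPM in library 1 and 0.0401 RPM in library 2, so the lack of a shared peak does not show a lack of binding.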
